A study of Mus musculus with 2 samples.

Results

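The 44 genes described here make or control the machinery that burns fatty acids in liver: uptake and activation, the carnitine shuttle, mitochondrial and peroxisomal β-oxidation, acyl-CoA thioesterases, ketone body synthesis, and further targets of the nuclear receptor PPARα. They were chosen by name from these functions, with earlier results of these data known. All 44 were found among the 53241 distinct gene symbols of the liver mRNA sequencing. In the iFIRKO liver, 7 of them were more than 1.5-fold above the control, none was that far below it, and 41 had a log2 fold change above 0. The median log2 fold change was 0.38, against 0.01 over all genes tested. *Ehhadh*, a peroxisomal enzyme and the second most abundant of the 44 per length, lay in the opposite direction.

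The data are 1 control and 1 iFIRKO liver library from male mice. iFIRKO mice carry Adipoq-CreERT2, a Cre recombinase that is driven by the adiponectin promoter and switched on by tamoxifen, together with floxed alleles of the insulin receptor gene, *Insr*, so that the receptor is deleted in adipocytes. The sample labels give the control genotype as WT, whereas the methods describe the control mice as IR flox/flox. Both groups were given tamoxifen intraperitoneally from the age of 7 weeks, at 100 mg/kg on 5 days, and liver was collected 3 days after the last of these doses. Neither source says whether a library came from 1 mouse or from a pool. With 1 library per group no difference has a replicate check, and no p-value was computed. *Insr* itself, in a tissue where it is not the target of the deletion, had 4246 normalized reads in the control and 3692 in the iFIRKO liver.

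As background, long-chain fatty acids are bound by FABP1 in the hepatocyte, activated to acyl-CoA and passed into mitochondria as carnitine esters. There they are shortened in repeated rounds of dehydrogenation, hydration, a further dehydrogenation and thiolytic cleavage, and the acetyl-CoA can be turned into ketone bodies. Peroxisomes shorten very long and branched chains with a separate set of enzymes. PPARα is a nuclear receptor that fatty acid derivatives activate, and it induces many genes of both routes in fasting.

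Some members are near-identical copies whose reads may be split between them, so the sequences that separate them matter for the values that follow. Coding sequences of *Acaa1a* (chr9:119339676-119350299, + strand) and *Acaa1b* (chr9:119148023-119157093, − strand), both peroxisomal thiolases, were identical at 96.5% of 1272 aligned bases. Those of *Acot1* (chr12:84009490-84018371, + strand) and *Acot2* (chr12:83987861-83993873, + strand), both acyl-CoA thioesterases, were identical at 95.6% of 1236 aligned bases. Gene positions are from GENCODE M21 on GRCm38. The 60-base stretches below are those where each pair differed most, read 5′ to 3′ along the coding strand, and capitals mark the bases that differ. The *Acaa1a* and *Acaa1b* stretches are coding bases 259 to 318 of each and differ at 11 positions. The *Acot1* stretch is coding bases 823 to 882, the *Acot2* stretch is coding bases 946 to 1005, and they differ at 13 positions.
Acaa1a: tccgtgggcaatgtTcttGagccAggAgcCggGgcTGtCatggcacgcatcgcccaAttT
Acaa1b: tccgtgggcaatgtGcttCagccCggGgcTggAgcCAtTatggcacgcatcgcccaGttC
Acot1: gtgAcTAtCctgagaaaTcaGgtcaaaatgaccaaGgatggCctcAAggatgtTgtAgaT
Acot2: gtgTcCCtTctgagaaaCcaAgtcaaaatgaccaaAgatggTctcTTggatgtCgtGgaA
Of all 50-base words in the *Acaa1b* transcript, 35.5% also occurred in transcripts of another gene, as did 34.0% for *Acaa1a*, 33.6% for *Acot1*, 27.7% for *Acot2* and 19.5% for *Acot3*. The share was 0 for 30 of the 44 members and 5% or more for 8. How the authors' counting treated reads that fit several genes is not given in the sources used here.

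PPARα binds DNA at a direct repeat spaced by 1 base, so the members' promoters were searched for it, written here as AGGNCANAGGNCA on either strand. The search covered 43 RefSeq (GRCm38.p6) promoter entries of 38 of the 44 members, each from 250 bases before to 50 bases after a start. Promoters of the remaining members were not searched, which does not mean that RefSeq lacks them. The motif was in 1 of them, that of *Fabp1*, and in 0.381% of all 32851 promoter entries. The looser form NGGNCANAGGNCA, which includes every match of the stricter one, was in 2 of the 43, those of *Fabp1* and *Acot4*, and in 0.798% of all entries. Both matches lie on the strand opposite to the gene. In the lines below, each 60-base stretch is on the + strand and ends with the match, in capitals.
Fabp1 promoter, chr6:71199765-71199824, match at bases -67 to -55 from the start: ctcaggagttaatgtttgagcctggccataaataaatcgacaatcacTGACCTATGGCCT
Acot4 promoter, chr12:84038319-84038378, match at bases -13 to -1 from the start: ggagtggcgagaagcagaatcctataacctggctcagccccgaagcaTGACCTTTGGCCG
A match describes the letters only, and its absence from the other windows says nothing of distant elements.

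Values are normalized reads per gene, returned to the linear scale from the deposited log2 values, at an estimated depth of 42276584 reads in the control and 41304952 reads in the iFIRKO library. A gene was tested where 1 or both libraries had at least 41.8 normalized reads, which stands for a CPM (counts per 1e+06 reads) of 1, and was called where the fold exceeded 1.5, a log2 fold change of 0.58 in size. The 95% exact Clopper-Pearson intervals given after log2 fold changes rest on estimated read pairs and cover counting error only. All 44 members passed the minimum, with 565 normalized reads or more in each library.

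Of the 44 members, 7 rose (15.9%), whereas 4.46% of the 13400 genes tested were called higher. None was called lower, against 7.28% of the genes tested. A log2 fold change above 0 was found in 41 of the 44 (93.2%), against 51.3% of all genes tested. The members are well expressed, and among the 6492 genes at or above the lowest mean level of a member, 2.05% were called higher and 55.4% had a log2 fold change above 0. The counting interval lay wholly above 0 for 40 members and wholly below 0 for 2, *Ehhadh* and *Pdk4*. Most differences were modest, with 26 members between 20% and 50% above the control and 10 within 20% of it in either direction. The summed reads of all 44 were 560869 in the control, 1.34% of that library, and 684956 in the iFIRKO liver, 1.65% of that library. The log2 fold change of this sum was 0.29, and 0.39 without *Ehhadh*. In bulk liver, a change in the number of cells of a type and a change in RNA per cell cannot be told apart.

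**Figure D1:**
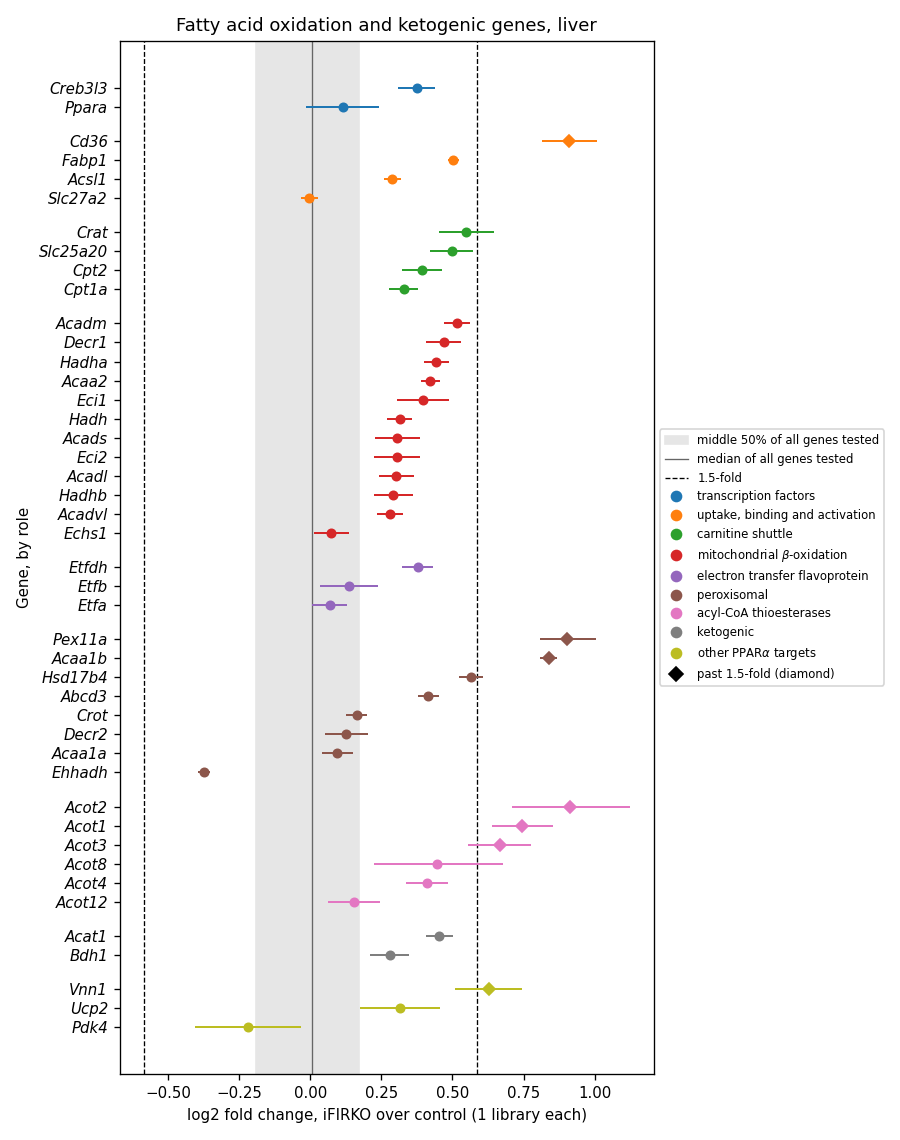
Log2 fold change of each of the 44 genes (x axis, iFIRKO over control, 1 library each), grouped by role on the y axis, with 95% counting intervals as bars and genes past 1.5-fold as diamonds. All 19 genes of the carnitine shuttle, mitochondrial β-oxidation and electron transfer lie between 0.07 and 0.55, right of the median of all genes tested. The peroxisomal genes run from -0.37 for *Ehhadh* to 0.90 for *Pex11a*.

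The transcription factors of the group were not called. *Ppara*, the receptor itself, had 1908 normalized reads in the control and 2066 in the iFIRKO liver. Its log2 fold change was 0.11 with an interval from -0.01 to 0.24, which holds 0. *Creb3l3*, a membrane-bound transcription factor of hepatocytes that acts with PPARα in fasting, had 7010 and 9087 reads, a log2 fold change of 0.37 (0.31 to 0.44).

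Among the genes of fatty acid uptake, binding and activation, *Cd36* rose and *Slc27a2* had nearly the same level in both libraries. *Cd36*, a surface receptor that takes up fatty acids, had 2635 normalized reads in the control and 4955 in the iFIRKO liver, giving a log2 fold change of 0.91 (0.81 to 1.01). *Slc27a2*, a transport protein and very long-chain acyl-CoA synthetase, had 38571 and 38494 reads. *Fabp1*, the liver fatty acid binding protein whose promoter stretch is printed above, had 77132 reads in the control and 109348 in the iFIRKO liver. Its log2 fold change of 0.50 (0.48 to 0.52) was below the 1.5-fold call, and in summed reads it accounted for the largest gain of the 44. *Acsl1*, which activates long-chain fatty acids to acyl-CoA, had 31587 and 38572 reads (0.29, interval 0.26 to 0.32).

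*Cd36* is also expressed by macrophages, endothelial cells and adipocytes, so the markers of these cells are given beside it. All 11 Kupffer cell and macrophage markers had log2 fold changes below 0 and 8 were called lower, with summed reads of 43078 in the control and 27795 in the iFIRKO liver. All 9 endothelial markers were below 0 as well, 3 of them called, with summed reads of 14704 and 10787. Which cells the *Cd36* reads came from was not tested. Of 8 adipocyte markers, *Lep*, *Retn* and *Cidea* were listed at 0 in both libraries, *Adipoq* and *Plin1* were at 0 in the control and at 2.01 reads in the iFIRKO library, *Cfd* was at 0 and 8.05 reads, and the list summed to 1274 and 1147 reads, in the control all from *Fabp4* and *Lipe*. Of 7 hepatocyte markers 1, *Apoa1*, was called lower, and together they took 12.5% of the control library and 11.9% of the iFIRKO library. Erythroid markers summed to 13473 and 27016 reads, and all 6 tested were called higher. Of 8 stellate cell markers, 7 were above 0 and none was called, with a median of 0.15. The 4 tested lymphoid and neutrophil markers were all below 0, 3 of them called lower. Markers of periportal and pericentral hepatocytes had median log2 fold changes of -0.02 and -0.15, with 0 of 8 and 1 of 8 called. Over all genes tested, 4.46% were called higher and 7.28% lower. The part of cell composition in the members' values was not tested.

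The 19 genes of the carnitine shuttle, mitochondrial β-oxidation and electron transfer are called the mitochondrial genes here. Mitochondrial enzymes listed under other roles are not among these 19, such as *Acot2* (0.91, called) and *Pdk4* (-0.22). None of the 19 was called, and all 19 had a log2 fold change above 0 and all 19 counting intervals lay above 0. Their median was 0.33, and the range ran from 0.07 to 0.55. Summed, they had 169684 normalized reads in the control and 217091 in the iFIRKO liver, or 0.404% and 0.522% of the libraries. The log2 fold change of the sum was 0.36 (0.34 to 0.37).

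The 4 genes of the carnitine shuttle, which carries acyl groups across the inner mitochondrial membrane, had a median log2 fold change of 0.45. *Cpt1a*, the outer-membrane carnitine palmitoyltransferase and the main point of control of the route, had 10924 reads in the control and 13721 in the iFIRKO liver, giving a log2 fold change of 0.33 (0.28 to 0.38). It was the lowest of the 4. *Slc25a20*, the carnitine-acylcarnitine translocase, had 4820 and 6808 reads (0.50, interval 0.42 to 0.57). *Cpt2*, which re-forms acyl-CoA in the matrix, had 5923 and 7781 reads (0.39, interval 0.32 to 0.46). *Crat*, the carnitine acetyltransferase, had 2961 and 4333 reads, and its log2 fold change of 0.55 (0.45 to 0.65) was the highest of these 19 genes.

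The 12 enzymes of mitochondrial β-oxidation had a median log2 fold change of 0.31. The acyl-CoA dehydrogenases, which open each round for a given chain length, differed in size of change. *Acadm*, for medium chains, had 13643 reads in the control and 19510 in the iFIRKO liver, giving a log2 fold change of 0.52 (0.47 to 0.56). *Acadvl* (13953 and 16953 reads, 0.28), *Acadl* (7777 and 9588 reads, 0.30) and *Acads* (4673 and 5777 reads, 0.31), for very long, long and short chains, lay close together. The interval of *Acadm* did not meet that of any of these 3. Of the exon bases of *Acadvl*, 42.9% overlap *Dvl2* on the opposite strand, which had 326 and 262 reads, and no source states that reads were counted by strand.

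*Hadha* and *Hadhb* encode the α and β subunits of the mitochondrial trifunctional protein and are transcribed in opposite directions from starts 86 bp apart on chromosome 5. *Hadha* had 14234 reads in the control and 19361 in the iFIRKO liver, giving a log2 fold change of 0.44 (0.40 to 0.49). *Hadhb* had 6330 and 7752 reads, a log2 fold change of 0.29 (0.22 to 0.36), and the intervals of the subunits did not meet. Per kilobase of exon the ratio of *Hadha* to *Hadhb* was 1.70 in the control and 1.89 in the iFIRKO liver. The size of this ratio depends on the length used. Per kilobase of the longest transcript, *Hadha* had 3544 and 4820 and *Hadhb* 1443 and 1767 in the control and iFIRKO libraries. Of the 50-base words in the *Hadhb* transcript, 62.4% also occur in other annotated genes, mainly *Gm13910*, so its value is less certain than that of *Hadha*.

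Of the other enzymes of the spiral, *Hadh*, the dehydrogenase for shorter hydroxyacyl chains, had 14421 and 17928 reads (0.31, interval 0.27 to 0.36). *Acaa2*, the matrix thiolase that ends a round, had 25135 reads in the control and 33677 in the iFIRKO liver, giving a log2 fold change of 0.42 (0.39 to 0.46). *Echs1*, the short-chain enoyl-CoA hydratase, was the lowest of the 12, with 8412 and 8855 reads, a log2 fold change of 0.07 (0.01 to 0.14). Enzymes that handle unsaturated chains had intermediate to high values. *Decr1*, the mitochondrial dienoyl-CoA reductase, had 7333 and 10156 reads (0.47, interval 0.41 to 0.53), and the enoyl-CoA isomerases *Eci1* (3374 and 4439 reads) and *Eci2* (4432 and 5477 reads) had log2 fold changes of 0.40 and 0.31.

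Electrons from the dehydrogenases pass through the electron transfer flavoprotein, whose subunits are *Etfa* and *Etfb*, to its oxidoreductase *Etfdh*. *Etfa* had 8592 reads in the control and 9009 in the iFIRKO liver, giving a log2 fold change of 0.07 (0.01 to 0.13). *Etfb* had 2997 and 3296 reads (0.14, interval 0.04 to 0.24), and 67.3% of its 50-base words also occur in *Gm45233*, which overlaps it on the same strand and had 7466 and 7729 reads. *Etfdh* had 9749 and 12670 reads, a log2 fold change of 0.38 (0.32 to 0.43), and its interval lay above those of both flavoprotein subunits.

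**Figure D2:**
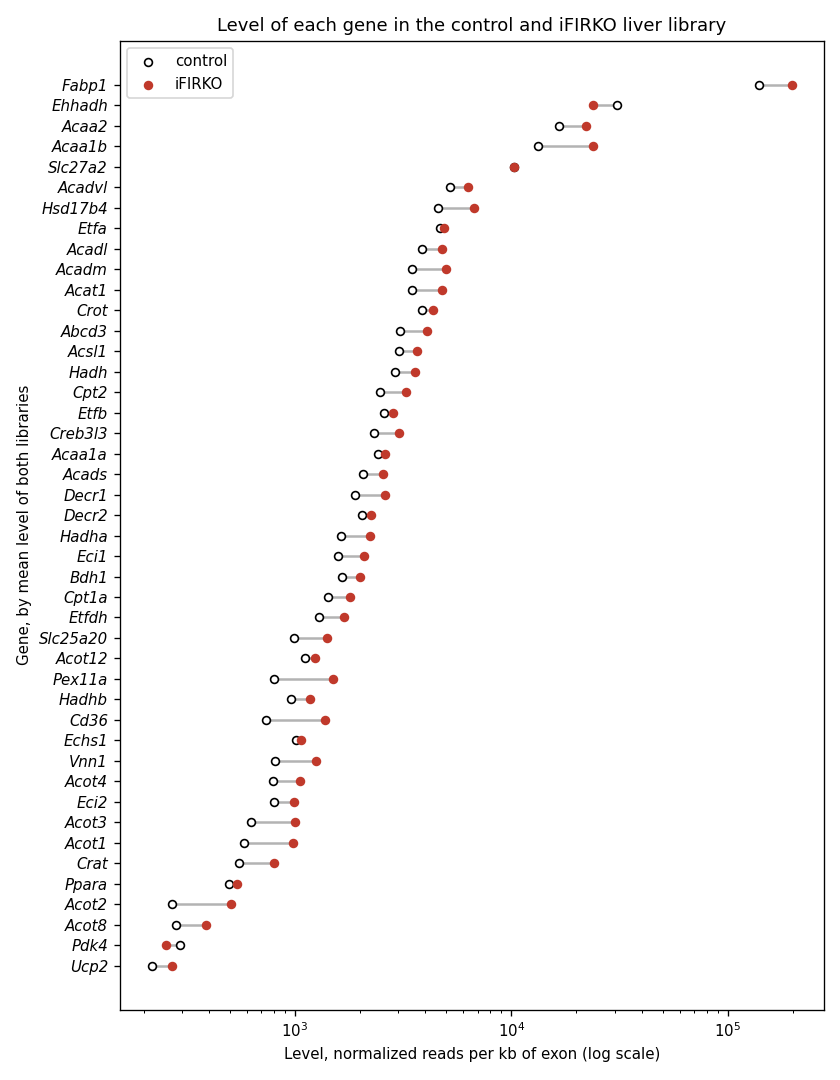
Level of each gene in normalized reads per kilobase of exon (x axis, log scale) in the control library (open circles) and the iFIRKO library (filled circles), with genes ordered on the y axis by mean level. *Fabp1* stands apart at 139479 and 197736, *Ehhadh* is the abundant gene whose iFIRKO circle lies left of its control circle, and *Acaa1b* lies beside *Ehhadh* in the iFIRKO library on this exon-union length.

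The 8 peroxisomal genes spread widely, from -0.37 to 0.90 with a median of 0.29. Of these, 2, *Pex11a* and *Acaa1b*, were called higher, against 4.46% of all genes tested. *Ehhadh*, the bifunctional enzyme that hydrates and dehydrogenates straight-chain substrates (chr16:21761287-21787807), had 92004 reads in the control and 71019 in the iFIRKO liver. Its log2 fold change of -0.37 (-0.39 to -0.35) was the lowest of all 44 genes and did not reach the 1.5-fold call. *Hsd17b4*, the other peroxisomal bifunctional enzyme, had 15522 reads in the control and 22947 in the iFIRKO liver, giving a log2 fold change of 0.56 (0.52 to 0.61) just under the call. Per kilobase of exon, *Ehhadh* was 6.77 times the level of *Hsd17b4* in the control and 3.53 times in the iFIRKO liver. Per kilobase of the longest transcript, *Ehhadh* had 30863 and 23824 and *Hsd17b4* 5783 and 8550, so these ratios also depend on the length used.

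The thiolase *Acaa1b* had 26127 reads in the control and 46718 in the iFIRKO liver, giving a log2 fold change of 0.84 (0.81 to 0.87). Its near-identical copy *Acaa1a* had 10737 and 11474 reads (0.10, interval 0.04 to 0.15). Per kilobase of exon the ratio of *Acaa1b* to *Acaa1a* was 5.47 in the control and 9.16 in the iFIRKO liver, while the ratio of *Ehhadh* to *Acaa1b* was 2.32 in the control and within 1% of equality in the iFIRKO liver. That near-equality depends on the length used, since per kilobase of the longest transcript the iFIRKO levels were 23824 for *Ehhadh* and 27660 for *Acaa1b*. Summed, which leaves aside how reads may have been split between them but not reads that were dropped, the pair had 36864 and 58192 reads, a log2 fold change of 0.66 (0.63 to 0.69).

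*Pex11a*, a peroxin that promotes the division of peroxisomes, had 2542 reads in the control and 4761 in the iFIRKO liver, giving a log2 fold change of 0.90 (0.81 to 1.005). *Abcd3*, a peroxisomal membrane transporter, had 20189 and 26929 reads (0.42, interval 0.38 to 0.45). *Crot*, the carnitine octanoyltransferase that readies shortened chains for export, had 21193 and 23736 reads (0.16), and *Decr2*, the peroxisomal dienoyl-CoA reductase, had 5436 and 5938 reads (0.13). The summed peroxisomal genes had 193750 reads in the control and 213521 in the iFIRKO liver, giving a log2 fold change of 0.14. Without *Ehhadh* the sums were 101746 and 142502, a log2 fold change of 0.49 (0.47 to 0.50).

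The acyl-CoA thioesterases, which release free fatty acids from CoA, had the highest median of the role groups, 0.56. Of the 6, 3 were called higher, against 4.46% of all genes tested, and these 3 share sequence as given above. *Acot2*, the mitochondrial enzyme, had 592 reads in the control and 1118 in the iFIRKO liver. Its log2 fold change of 0.91 (0.71 to 1.12) was the highest of all 44, but this rank depended on the pseudocount. With a pseudocount of a CPM of 1 it was 0.87, below *Cd36* at 0.90 and *Pex11a* at 0.89. *Acot1*, the cytosolic enzyme, had 2289 and 3838 reads (0.74, interval 0.64 to 0.85). *Acot3*, a peroxisomal enzyme, had 2163 and 3435 reads (0.67, interval 0.56 to 0.78), so its interval reaches below the 1.5-fold line. *Acot4*, its peroxisomal neighbour in the same cluster on chromosome 12, had 5287 and 7032 reads and a log2 fold change of 0.41 (0.34 to 0.48). The 4 clustered genes summed to 10331 reads in the control and 15423 in the iFIRKO liver, a 1.49-fold difference (log2 fold change 0.58, interval 0.53 to 0.63) that as a sum stayed just under the 1.5-fold call. Outside the cluster, *Acot8*, a peroxisomal enzyme, had 565 and 772 reads (0.45, interval 0.23 to 0.68), and *Acot12*, a cytosolic acetyl-CoA hydrolase, had 3670 and 4081 reads (0.15). Leaving out *Acot1* to *Acot4*, *Acaa1a* and *Acaa1b*, which share sequence, left 38 members with a median of 0.32. Of these, 3 were called higher, against 4.46% of all genes tested. Among genes at or above the lowest mean level of a member, 2.05% were called higher. The 38 are not free of shared sequence, since *Etfb*, *Hadhb* and *Eci2* stay among them. In that order, 67.3%, 62.4% and 8.86% of the words in their transcripts also occur in other genes.

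Neither ketogenic member was called. *Acat1*, the mitochondrial thiolase that condenses acetyl-CoA to acetoacetyl-CoA, had 13093 reads in the control and 17942 in the iFIRKO liver, giving a log2 fold change of 0.45 (0.41 to 0.50). *Bdh1*, which reduces acetoacetate to β-hydroxybutyrate, had 6412 and 7784 reads (0.28, interval 0.21 to 0.35).

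The remaining PPARα targets went separate ways. *Vnn1*, a pantetheinase of the hepatocyte surface, rose from 1964 reads in the control to 3036 in the iFIRKO liver. Its log2 fold change was 0.63 (0.51 to 0.74), with an interval that reaches below the call. *Pdk4*, the kinase that switches off pyruvate dehydrogenase in fasting, had 1036 and 889 reads, a log2 fold change of -0.22 (-0.40 to -0.03). *Ucp2*, a mitochondrial carrier that is abundant in Kupffer cells, had 1521 and 1895 reads (0.32, interval 0.18 to 0.46). The cells that its reads came from were not tested either.

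**Figure D3:**
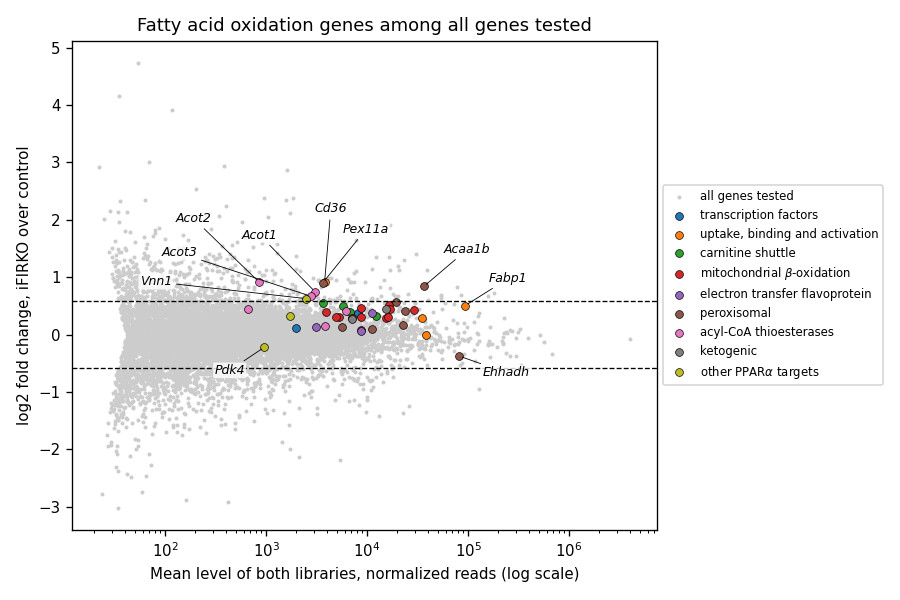
Log2 fold change (y axis, iFIRKO over control) against the mean level of both libraries in normalized reads (x axis, log scale) for all 13400 genes tested (grey) and the 44 members (coloured by role), with 1.5-fold as dashed lines. The 7 called members lie above the upper line, 41 members lie above 0, and *Ehhadh* lies below 0 among the most abundant genes.

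Per kilobase of exon, the order of levels was led by *Fabp1*, with 139479 normalized reads in the control and 197736 in the iFIRKO liver. *Ehhadh* followed with 30863 and 23824, then *Acaa2* with 16580 and 22215, *Acaa1b* with 13317 and 23811, and *Slc27a2* with 10275 and 10254. The ratio of *Fabp1* to *Ehhadh* was 4.52 in the control and 8.30 in the iFIRKO liver. The lowest members were *Ucp2*, *Pdk4*, *Acot8*, *Acot2* and *Ppara*. The genes that rose were mostly low in this order: 6 of the 7 ranked 30th or lower of the 44, the exception being *Acaa1b*, which ranked 4th, or 3rd by the longest transcript.

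Other genes of the same pathways, listed apart from the members and likewise with earlier results known, were examined in the same way. Of 98 tested, 14 were called higher and 1 lower, with a median log2 fold change of 0.11. Over all 13400 genes tested, 4.46% were called higher and 7.28% lower, with a median of 0.01. With the minimum required in both libraries, 12 of the other pathway genes were called higher, against 3.42% of all genes tested. For the 8 tested genes of ketone body synthesis and transport outside the members, the median was 0.17.

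Of 20 other peroxisomal entries tested (1 symbol is listed more than once), 2 were called higher and none lower, and the median log2 fold change was 0.13. The share called higher over all genes tested was 4.46%. *Scp2*, a thiolase and sterol carrier protein for branched chains, had 56525 reads in the control and 100088 in the iFIRKO liver, giving a log2 fold change of 0.82 (0.80 to 0.85). Catalase, *Cat*, had 94091 and 103399 reads (0.14). *Acot5*, the other called gene, had only 15.1 and 45.1 reads and passed the minimum only in the iFIRKO library. None of 15 further peroxins was called, with a median of 0.16, and *Pex11a* lay above their highest value, 0.41.

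Of 19 other mitochondrial and acyl-CoA genes tested, *Acaca*, the acetyl-CoA carboxylase of fatty acid synthesis, rose from 5359 to 8350 reads (0.64), and *Eci3* fell from 337 to 143 reads (-1.21, interval -1.65 to -0.82). *Eci3* is a peroxisomal enoyl-CoA isomerase that shares 8.86% of the 50-base words of *Eci2*. The median of this list was 0.03. Of 18 further PPARα targets tested, 9 were called higher, against 4.46% of all genes tested, and none lower. Their median log2 fold change was 0.56. Of the 9 not called, 4 had log2 fold changes below 0, and 3 of these had intervals wholly below 0. *G0s2*, an inhibitor of the lipase ATGL, had 510 reads in the control and 2623 in the iFIRKO liver, giving a log2 fold change of 2.35 (2.17 to 2.56). *Cidec*, a lipid droplet protein, had 17.9 and 108 reads and passed the minimum only in the iFIRKO library, and *Retsat*, a retinol saturase, had 13536 and 33433 reads (1.30). The ω-hydroxylase *Cyp4a14* had 24429 and 53514 reads (1.13), while *Cyp4a10* had 28948 and 35983 reads (0.31).

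Of 18 partners and coregulators of the PPARs, 1 was called higher, near the share of 4.46% over all genes tested. The median log2 fold change was -0.05. Values were below 0 for 12 of the 18. Counting intervals lay wholly below 0 for 8 and wholly above 0 for 2. The called gene was *Pparg*, the receptor known best from adipocytes, with 358 reads in the control and 677 in the iFIRKO liver. Its log2 fold change was 0.91 (0.65 to 1.19). *Rxra*, the partner with which PPARα binds DNA, and *Hnf4a*, a hepatocyte nuclear receptor, had log2 fold changes of -0.05 and -0.04.

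**Figure D4:**
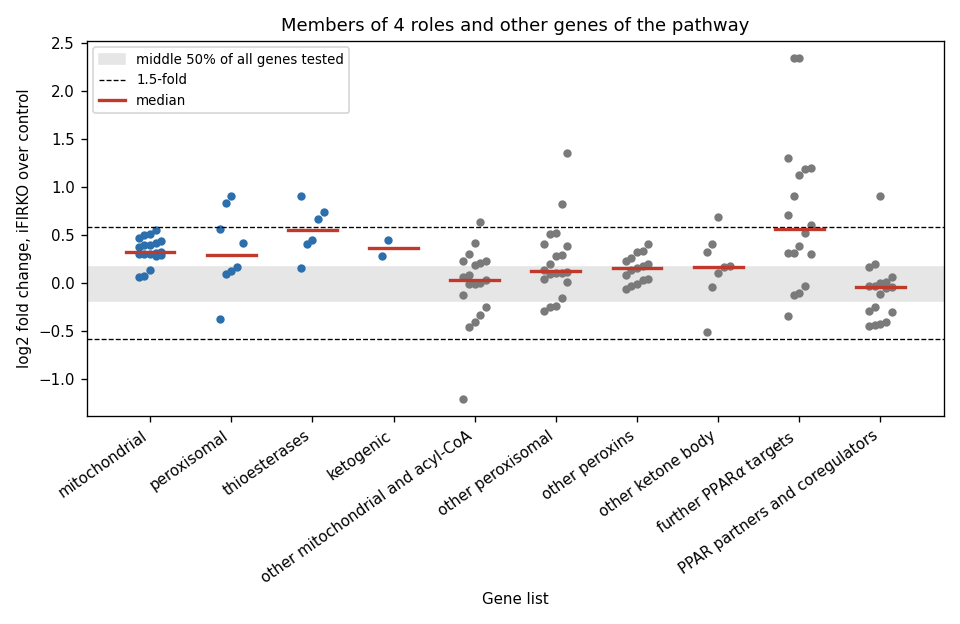
Log2 fold change (y axis, iFIRKO over control) of each tested gene (points) by list (x axis), with the mitochondrial, peroxisomal, thioesterase and ketogenic members in blue, other genes of the pathway in grey and medians as red lines. The mitochondrial members shown are those of the carnitine shuttle, β-oxidation and electron transfer, with a median of 0.33. The further PPARα targets reach 2.35. The list of other mitochondrial and acyl-CoA genes centres on 0.03, and it also holds *Acaca* of fatty acid synthesis and the peroxisomal *Eci3*.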

How the data were processed

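Liver mRNA of 1 control and 1 iFIRKO sample was analysed, grouped by the sample labels. Libraries were made with a stranded TruSeq mRNA kit and sequenced on a NovaSeq platform. The authors deposited log2 normalized read counts for 53342 rows named by symbol, of which 62.2% in the control and 62.1% in the iFIRKO library are at 0. The submitters' processing notes name the build mm10, and the aligner, the counter and the annotation are not given in the sources used here. Values above 0 were returned to the linear scale. Many low values are fractions of a read (40.2% and 40.5% of values under 100 were whole read pairs within 0.01 pair), so depth is an estimate and no count model was used. The design had foreseen other units, and its limits were restated with 41.8 normalized reads taken as a CPM of 1.

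The fold was the ratio of iFIRKO to control after 4.18 normalized reads (a CPM of 0.1) were added to each as a pseudocount. Genes entered the comparison where either library reached a CPM of 1. A fold above 1.5, the threshold of the study's methods, was called. Intervals are 95% exact Clopper-Pearson intervals. Levels of different genes were compared per kilobase of the union of exons in GENCODE M21 (GRCm38), and ratios between genes can depend on this choice of length. Every member is named. Of other lists, up to 3 genes by level and 3 by fold among those called are named, and some of these genes are not reported here. Genes, lists and members were chosen with earlier results of these data known. Alternatives were other pseudocounts, minimums, scalings and call rules, summed duplicate symbols (99 symbols are listed more than once) and another gene length. The calculations were tested on simulated data. Software was scipy 1.17.1, pandas 2.3.3, numpy 2.4.6 and matplotlib 3.10.9 under Python 3.11.15.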

Additional observations from a re-analysis of the deposited data

How the results depend on the processing

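Of the 44 genes, 7 were called higher under each pseudocount, minimum and scaling tried, and with duplicate symbols summed. At a fold above 2 the number was 0. Where the counting interval had to lie past 1.5-fold, a rule chosen after seeing the data, it was 5, without *Acot3* and *Vnn1*. None was called lower and 41 lay above 0 under every setting. The median of the mitochondrial genes ranged from 0.32 to 0.33, and none of 396 single-gene values changed sign. Of other pathway genes, 14 were called higher, against 7 at a fold above 2, and 1 lower, against 2 with no minimum. Over all genes, 597 higher and 976 lower became 371 and 576 with a pseudocount of a CPM of 1, 1960 and 2620 with no minimum, 288 and 440 with a minimum CPM of 5, 209 and 267 at a fold above 2, and 201 and 250 with an interval past 1.5-fold. Of the 10 highest genes per length, 8 stayed among the 10 with the longest transcript as length. No paired analysis was possible because there is only 1 library of each genotype, and for the same reason no replicate could be left out.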

Other observations

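The other 5 called genes among the further PPARα targets are named here after their values were seen. Their list was chosen to hold many genes of lipid droplets and glycerol, so a shared role among them is no result of these data. *Fitm2* (0.52) and *Hilpda* (0.39, interval -0.22 to 1.06), droplet genes of the same list, were not called. *Plin2* and *Plin5*, which coat lipid droplets, had log2 fold changes of 0.71 and 0.60. *Fitm1*, a protein of droplet formation, had 459 reads in the control and 1060 in the iFIRKO liver. *Mgll*, the monoacylglycerol lipase, had 4718 and 8861 reads, a log2 fold change of 0.91. *Gpd1*, the cytosolic glycerol-3-phosphate dehydrogenase, had 12451 and 28428 reads, a log2 fold change of 1.19.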
